A study of Mus musculus with 6 samples.

Results

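Antisense long noncoding RNA (lncRNA) genes and the protein-coding genes they overlap were compared between the cochleae of young and old mice. The antisense genes were chosen by their level and annotation: GENCODE release M21 gives them the type antisense, and the FPKM of their transcripts, summed per gene, averaged 2 or more over the 6 samples. FPKM is the number of sequenced fragments of a transcript, normalised for its length and for the depth of the sample. With 1 antisense gene left out by the same rule, 278 of the 1160 antisense genes in the table were kept, out of 25823 genes of all types. The coding partner of an antisense gene was the protein-coding gene on the opposite strand with an overlapping span, and where there were several, the one sharing most exonic bases. A partner was found for 262 antisense genes, among them 261 whose partner was in the table, and 257 pairs could be tested. The other 16 antisense genes overlapped no coding gene in this annotation.

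All animals were C57BL/6 mice, a strain that loses hearing early in life. Young mice were 1 month old and old mice were 12 months old, and no treatment or transgene was used in either group. Each sample held cochlear tissue of 3 mice, which the sample labels describe as cochlear basilar membrane, and each age had 3 samples. RNA of these 6 samples was sequenced from directional paired-end libraries, and the values of a sample rest on an estimated 12540000 to 15650000 fragments.

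An antisense lncRNA is transcribed from the strand opposite to a gene, often a coding gene whose sequence it then partly complements. Some such RNAs act on the gene beside them, by silencing it in cis, by occupying its promoter or by pairing with its messenger RNA, while for most no function is known. Airn, which runs against Igf2r on the paternal chromosome, is the textbook case of silencing in cis.

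The authors did not state whether fragments were assigned by strand. Where the exons of an antisense gene and its partner overlap, the fragments of both cannot be told apart here unless strand was used, so the share of overlapping exonic bases is given with each pair. Shown first are stretches of 4 pairs described later, to let the overlap be seen at the level of sequence. Each line is read 5′ to 3′ from the strand of the named RNA, and all 30 bases of a pair are complementary, so that no letters are marked. The longest complementary run of Gm44732 and Cdkn1c measured 422 nt, and its middle lies at chr7:143459991-143460020 (GRCm38) in the coding part of Cdkn1c.
Gm44732: cttctcctcgaccggctctgcgccctgctc
Cdkn1c: gagcagggcgcagagccggtcgaggagaag
For Chn1os1 and Chn1 the longest run measured 536 nt, with its middle at chr2:73659981-73660010 in an untranslated part of Chn1.
Chn1os1: gcctgcgactgccggtgaactctactcagc
Chn1: gctgagtagagttcaccggcagtcgcaggc
For Gm14703 and Syp it measured 878 nt, with its middle at chrX:7652260-7652289 in the untranslated end of Syp.
Gm14703: cttggggttgaatttccatttgagagcttc
Syp: gaagctctcaaatggaaattcaaccccaag
For D030025P21Rik and Ltbp2 it measured 764 nt, with its middle at chr12:84876136-84876165 in the coding part of the first Ltbp2 exon.
D030025P21Rik: tgtccccatcaagacagccaggacaagtgg
Ltbp2: ccacttgtcctggctgtcttgatggggaca

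**Figure D1:**
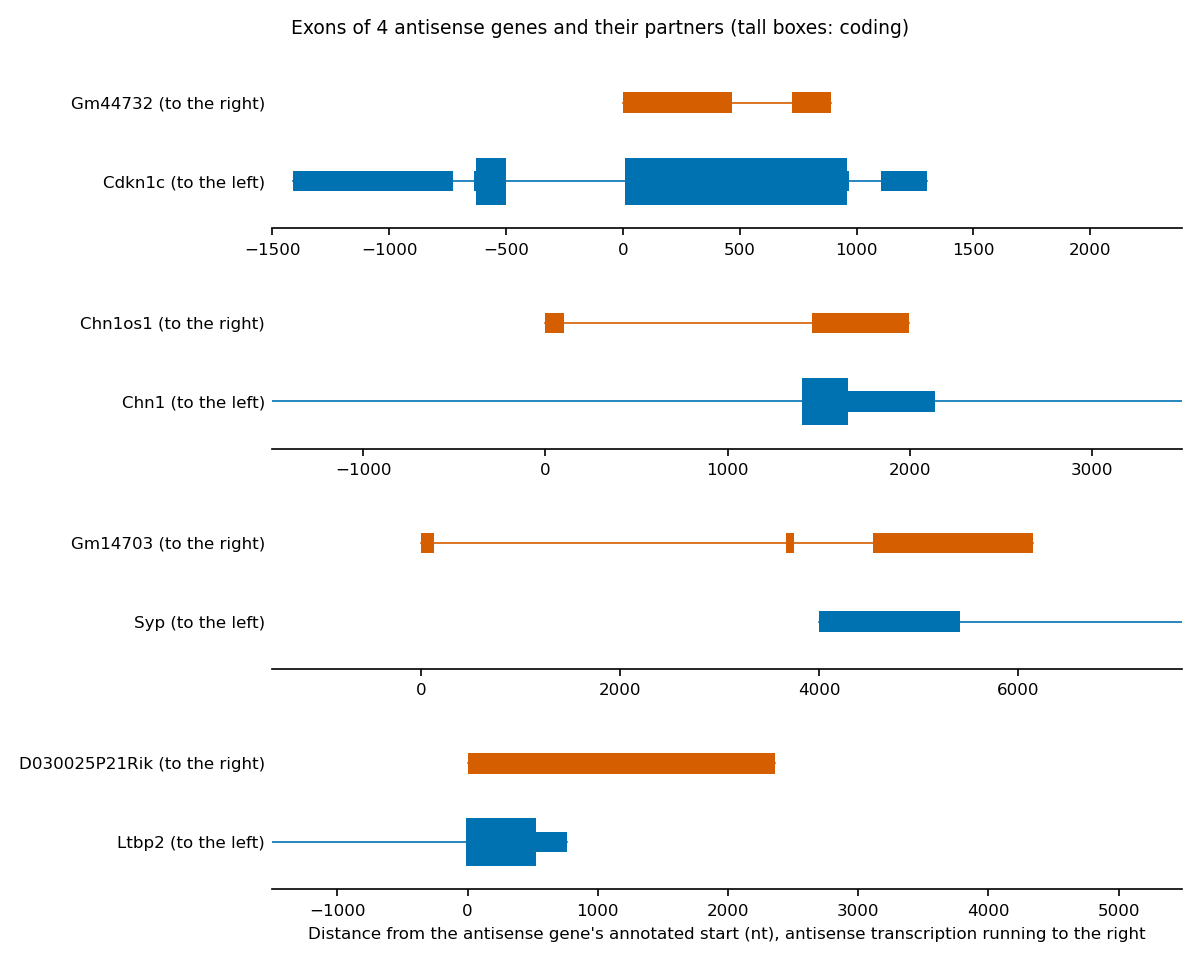
Exons of 4 antisense genes (orange) and of their partners (blue), to scale within each panel. The x axis is the distance in nt from the annotated start of the antisense gene, whose transcription runs to the right; tall boxes are coding, thin lines are introns, and partners are cut 1500 nt outside the antisense gene. Most exonic bases of Gm44732 lie over the large coding exon of Cdkn1c, parts of which they leave uncovered, and Gm14703 meets Syp tail to tail.

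The bases before 3 antisense starts are shown because these genes were higher in old mice and start near or inside their partner. The sequences are from RefSeq (GRCm38.p6), where 102 of the 278 antisense genes had a start region. Capitals mark the letters GGGCGG, a GC box, and TATAAA, on either strand. The starts of Ifrd1 and Gm7008 lie back to back in RefSeq, and the 174 bases between them, on the strand of Gm7008 at chr12:40223190-40223363, hold GGGCGG 2 times and TATAAA 0 times.
Gm7008: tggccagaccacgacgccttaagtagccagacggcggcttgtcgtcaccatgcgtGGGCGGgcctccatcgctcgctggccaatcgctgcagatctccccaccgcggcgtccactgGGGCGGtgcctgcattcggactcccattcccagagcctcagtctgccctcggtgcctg
Of all 32851 RefSeq start regions of this length, 29.9% held GGGCGG and 8.6% held TATAAA. The 250 bases before the start of D030025P21Rik at chr12:84875552-84875801 hold the GC box 2 times, both on the other strand, and the last 46 of these bases are annotated as coding sequence of Ltbp2.
D030025P21Rik: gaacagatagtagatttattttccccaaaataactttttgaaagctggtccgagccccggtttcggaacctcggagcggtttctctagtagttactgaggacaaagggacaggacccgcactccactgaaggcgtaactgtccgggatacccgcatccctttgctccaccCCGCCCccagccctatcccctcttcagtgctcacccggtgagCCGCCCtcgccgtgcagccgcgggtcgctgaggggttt
The 250 bases before the start of Airn at chr17:12741061-12741310 lie inside Igf2r and hold each motif 1 time, with no overlap between the motifs in any of the 3 windows.
Airn: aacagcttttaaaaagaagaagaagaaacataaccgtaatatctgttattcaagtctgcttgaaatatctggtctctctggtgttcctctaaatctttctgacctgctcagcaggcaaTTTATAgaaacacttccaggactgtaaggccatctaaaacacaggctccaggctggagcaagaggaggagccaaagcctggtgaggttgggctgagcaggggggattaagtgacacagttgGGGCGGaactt
Over all start regions of 250 bases, GGGCGG was in 32.7% and TATAAA in 12.4%, and over the 125 regions of the antisense genes they were in 36% and 7.2%. These matches describe letters in a window and not the binding of a factor.

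The antisense genes were of low to moderate level. Their mean FPKM ran from 2.02 to 646 with a median of 4.49, and 163 lay between 2 and 5, 58 between 5 and 10, and 57 at 10 or above. The highest mean, 646, was that of Gm11379, which was listed at 0 in all young samples. The median transcript measured 811 nt, from 220 to 5407 nt. Among samples of one age the median coefficient of variation was 18.6% in young and 18.8% in old mice for the antisense genes, against 8.52% and 7.94% for their partners. Of the antisense genes, 9 fell below 0.001 FPKM in at least 1 sample, and all 9 were shorter than 400 nt, as were 26 antisense genes in all. The values nearest the level that chose the genes were 2.02 FPKM for 4930539J05Rik, 2.03 for Gm12406 and 2.05 for Man2c1os inside it, and 1.98 for Gm21847, 1.98 for Gm15956 and 1.99 for Gm16062 outside it. The mean was under 2 FPKM in young mice for 28 of the chosen genes and in old mice for 12, and 238 reached it at both ages.

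The highest levels belonged to Gm11379, Gm37401, Gm11175, Gm44170, Rab26os and Tug1. Gm37401, opposite Rhoa, the small GTPase of the actin skeleton, had 136, 137 and 129.5 FPKM in young and 125, 135 and 119 FPKM in old mice. These ranges overlapped, and its log2 change from young to old was -0.08 with a standard error (SE) of 0.07. Tug1, a long-known lncRNA beside Morc2a, had 46.7, 51.6 and 49 FPKM in young and 48.5, 45.2 and 46.9 FPKM in old mice, and the groups again overlapped. Rab26os had 54.4, 56 and 77.6 FPKM in young and 78.4, 87.2 and 84.6 FPKM in old mice without overlap, with a log2 change of 0.43 (SE 0.14, adjusted p = 0.0923 in limma). Its partner Rab26, a GTPase of secretory vesicles, was far lower, between 0.215 and 1.83 FPKM in single samples.

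Relative to its partner, the level of an antisense gene had a median of 31.8% over the 257 pairs, and 36 antisense genes, 14% of the pairs, exceeded their partner. The pairs were divided by the share of antisense exonic bases that lie over exons of the partner. The median level was 13.4% of the partner in 37 pairs without shared exonic bases, 27.9% in 146 pairs with a share under 50%, 46.4% in 40 pairs from 50 to 90% and 60.6% in 34 pairs at 90% or more. The median length of the antisense transcript was 790 nt in the first and 472 nt in the last of these classes. Of the exonic bases over a partner in the last class, 37.4% lay over coding sequence.

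**Figure D2:**
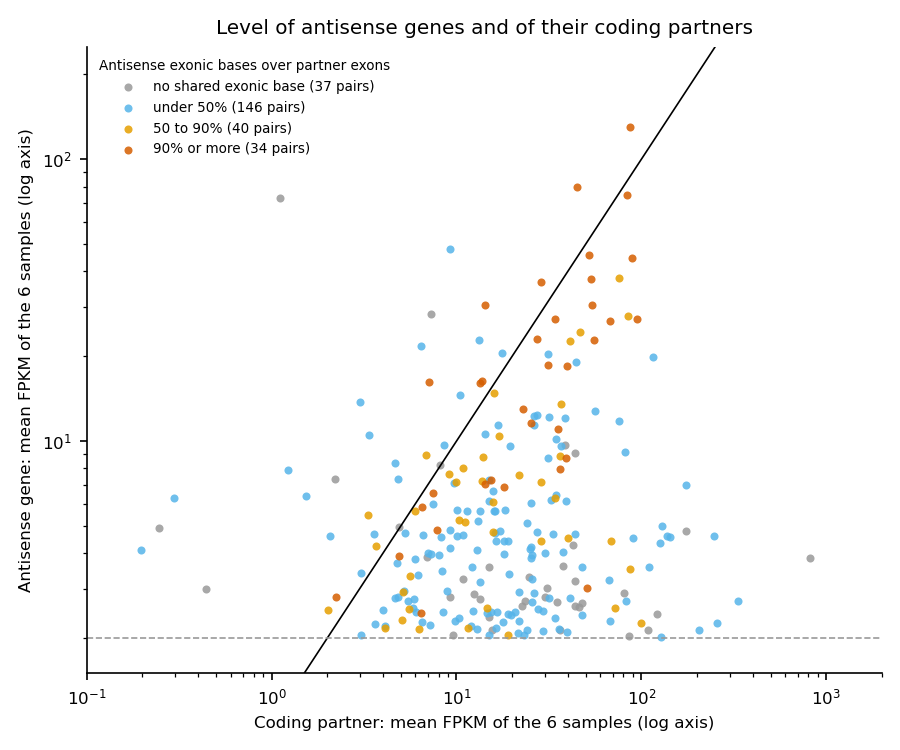
Mean FPKM over the 6 samples of each antisense gene (y) against its coding partner (x), both on log axes, for 257 pairs coloured by the share of shared exonic bases. The solid line marks equal levels and the dashed line the 2 FPKM that chose the genes; the orange-red points with a share of 90% or more sit nearer to the solid line than the grey points without shared bases.

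Old and young samples were then compared with limma on log2(FPKM + 0.1), with p adjusted by the Benjamini-Hochberg method over all 19649 genes tested and a threshold of 0.05. On this scale a change is understated for low genes. Of the 278 antisense genes 10 were higher and 4 lower in old mice, where 5.41% of all genes tested were higher and 3.68% lower. Of the 253 distinct partners tested, 20 were higher and 6 lower. The old samples were all higher than the young ones for 35 antisense genes and all lower for 21, against 17.5% and 16.0% of all genes tested. The same was the case for 47 and 46 of the partners. The choice by level enters the counts of antisense genes. Of these genes 28 averaged under 2 FPKM in young mice, among them Gm11379, D030025P21Rik, Gm20548 and Gm38155, all called higher, and 12 did in old mice. An excess of higher over lower antisense genes can therefore not be read as a result. The median log2 change was 0.02 over the antisense genes, 0.00 over their partners and 0.01 over all genes tested.

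These counts changed when any 1 sample was left out, which also leaves a smaller fit, and the cause was not tested. Without young replicate 1 the antisense genes called were 4 higher and 0 lower, and without young replicate 2 or any 1 of the 3 old samples 1 was higher, Gm11379, and 0 were lower. Without young replicate 3 they were 10 higher and 5 lower. Of the partners, 1 was higher and 1 lower without young replicate 1, 0 were called without young replicate 2 or any 1 old sample, and 12 were higher and 11 lower without young replicate 3. Each of the 14 antisense genes kept its sign in all of these fits, but leaving out 1 sample cannot turn a sign where the ages do not overlap.

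**Figure D3:**
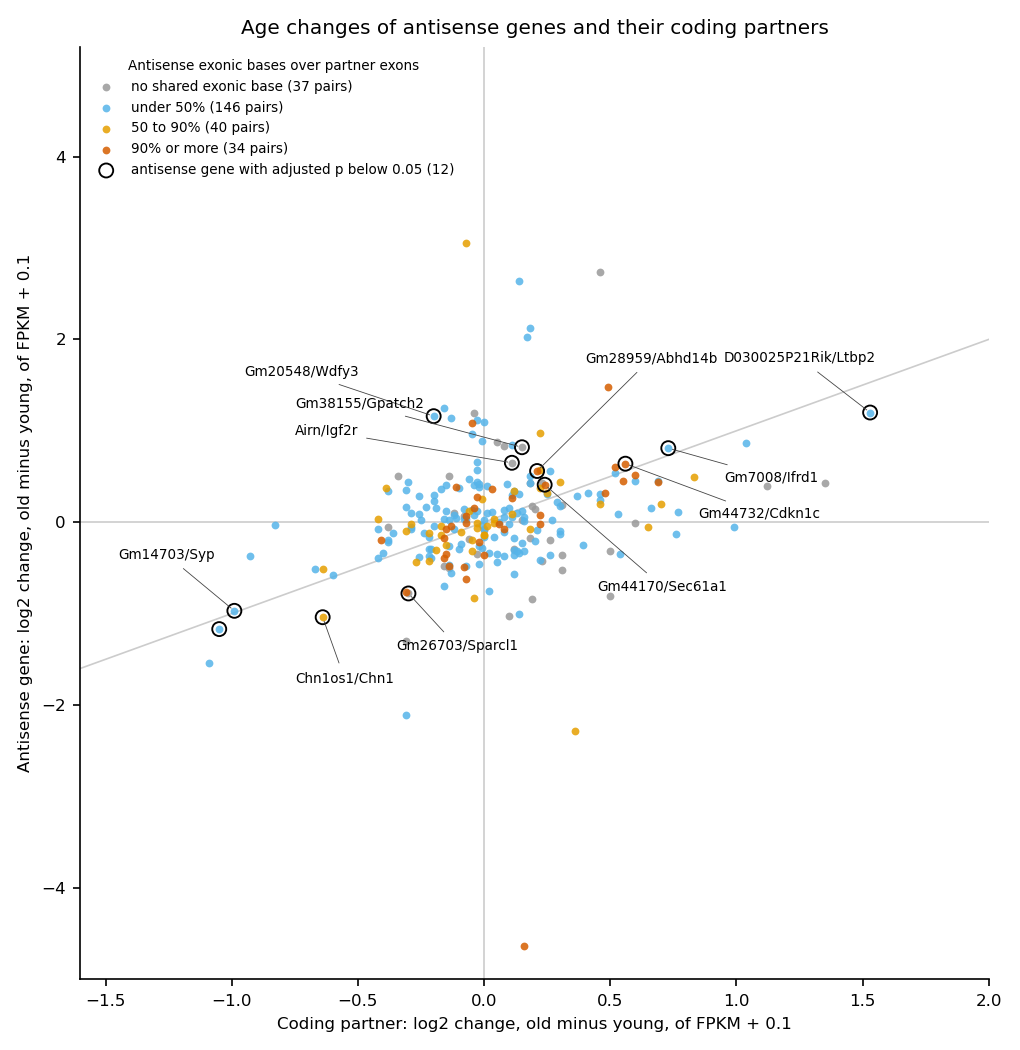
Log2 change from young to old of each antisense gene (y) against that of its coding partner (x), on log2(FPKM + 0.1), for 257 pairs coloured by the share of shared exonic bases. Circles, most of them named, mark the 12 antisense genes with a tested partner and an adjusted p below 0.05 in limma. The diagonal marks equal changes. Of the 12, which were picked by their own change, 11 have the sign of their partner, as have 58.4% of the 257 pairs.

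Among the 14 antisense genes called, Gm11379 stood apart. This gene of 381 nt on chromosome 13 overlapped no coding gene. It was listed at 0 in all young samples and at 469, 1702 and 1706 FPKM in the old samples. The groups did not overlap (adjusted p = 0.000142 in limma), but no fold can be given against values of 0. The other 8 antisense genes with a log2 change of more than 2 in size did not pass the test, and 7 of these 8 were shorter than 400 nt. Gm29434, of 260 nt, had 20.7, 7.38 and 7.76 FPKM in young and 7.77, 0 and 0 FPKM in old mice (log2 change -4.64, SE 1.59, adjusted p = 0.113).

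Of the 4 antisense genes that fell with age 3 are described here, and 2 of these sat opposite neuronal genes. Gm14703 meets the end of Syp, which encodes synaptophysin of synaptic vesicles, and shares 48.1% of its exonic bases with it. It had 12.1, 14.7 and 9.63 FPKM in young and 4.99, 7.25 and 6.14 FPKM in old mice, without overlap. Syp had 113, 151 and 67.3 FPKM in young and 57.5, 45.7 and 55.8 FPKM in old mice, also without overlap. Gm14703 fell by 0.97 on the log2 scale (SE 0.19, adjusted p = 0.0294 in limma). The log2 change of Syp was -0.99 (SE 0.27), with an adjusted p of 0.0626 that missed the threshold. Syp passed it with a filter of 1 FPKM, with sample weights (-1.08) and without young replicate 3 (-1.3), and not in the other fits.

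Chn1os1 lies inside Chn1, a regulator of Rac GTPases in axon guidance, with 83.8% of its exonic bases over exons of Chn1. It had 10.5, 12.3 and 6.75 FPKM in young and 3.75, 5.41 and 4.72 FPKM in old mice. Chn1 had 16.7, 22.1 and 12.1 FPKM in young and 11.9, 9.72 and 10.2 FPKM in old mice. Both were lower in every old sample than in any young one, by a narrow margin for Chn1. Chn1os1 fell by 1.04 on the log2 scale (SE 0.24, adjusted p = 0.0417 in limma), and Chn1 had a log2 change of -0.64 (SE 0.21, adjusted p = 0.101). The change of Chn1 was -0.42 without young replicate 2, while at -0.86 without young replicate 3 and at -1.4 with the most abundant transcript it passed the test. Chn1os1 kept its log2 change of -1.04 in the fit on the most abundant transcript of every gene, but did not pass the test there.

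Gm26703 shares no exonic base with its partner Sparcl1, a secreted glycoprotein that promotes the formation of synapses. It had 4.56, 5.26 and 4.83 FPKM in young and 2.55, 3.24 and 2.65 FPKM in old mice, and the groups did not overlap. It fell by 0.78 on the log2 scale (SE 0.16, adjusted p = 0.0294 in limma). Its level was 0.469% of that of Sparcl1, which had 964, 976 and 785 FPKM in young and 698, 747 and 758 FPKM in old mice and a log2 change of -0.30 (SE 0.10, adjusted p = 0.0967).

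Markers of spiral ganglion neurons moved in the same direction as these pairs, and so did other lists. Median log2 changes were -1.05 for hair cell, -0.96 for osteoblast and bone, -0.63 for erythrocyte, -0.53 for Schwann cell and -0.24 for supporting cell markers. They were 1.76 for macrophage, 2.14 for interferon response, 1.02 for skeletal muscle and 0.15 for stria and melanocyte markers. The skeletal muscle markers were low, with overlapping sums from 3.07 to 5.91 FPKM in young and from 1.6 to 10.2 FPKM in old samples, and 0 were called higher and 1 lower. Of the 10 neuron markers 6 were lower and 0 higher at the old age, their median log2 change was -0.96, and none averaged below 0.1 FPKM. Their summed level was 938, 1177 and 608 FPKM in young replicates 1, 2 and 3 and 412, 453 and 412 FPKM in the old samples. Young replicate 2 was the highest and young replicate 3 the lowest of the young samples in this sum, as in Gm14703, Syp, Chn1os1 and Chn1. In Gm26703 the lowest young sample was replicate 1. The part of neuron content in these changes was not tested, and in bulk tissue fewer cells of a type and less RNA per cell cannot be told apart.

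Neuronal and synaptic genes were partners of 19 antisense genes, a grouping made after the values were seen. Of these antisense genes 0 were higher and 3 lower in old mice, and of the 19 partners 0 were higher and 3 lower, among them Kif3c and Lrrc55. The shares over all genes tested were 5.41% higher and 3.68% lower. At an unadjusted p below 0.05 in limma 1 of these antisense genes was higher and 6 lower, and 3 of the partners were higher and 6 lower. At that p 2843 of all 19649 genes tested were higher and 2560 lower. The median log2 change was -0.37 for the antisense genes and -0.16 for the partners. 1110002L01Rik, which meets the end of the kinesin motor gene Kif3c and shares 63.4% of its exonic bases, had 16.9, 21.2 and 14.3 FPKM in young and 13.5, 11.2 and 11.7 FPKM in old mice. Its log2 change was -0.51 (SE 0.16, adjusted p = 0.0832 in limma), while Kif3c fell by 0.64 (SE 0.15, adjusted p = 0.0436). In the fit on the most abundant transcript of every gene, Kif3c had the same log2 change but was not called. Lrrc55, an auxiliary subunit of calcium-activated potassium channels, fell by 0.93 (SE 0.20, adjusted p = 0.0333). The antisense gene at its start, Gm13716, ranged from 5.27 to 15.6 FPKM in young and from 4.85 to 8.3 FPKM in old mice, so that the groups overlapped.

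**Figure D4:**
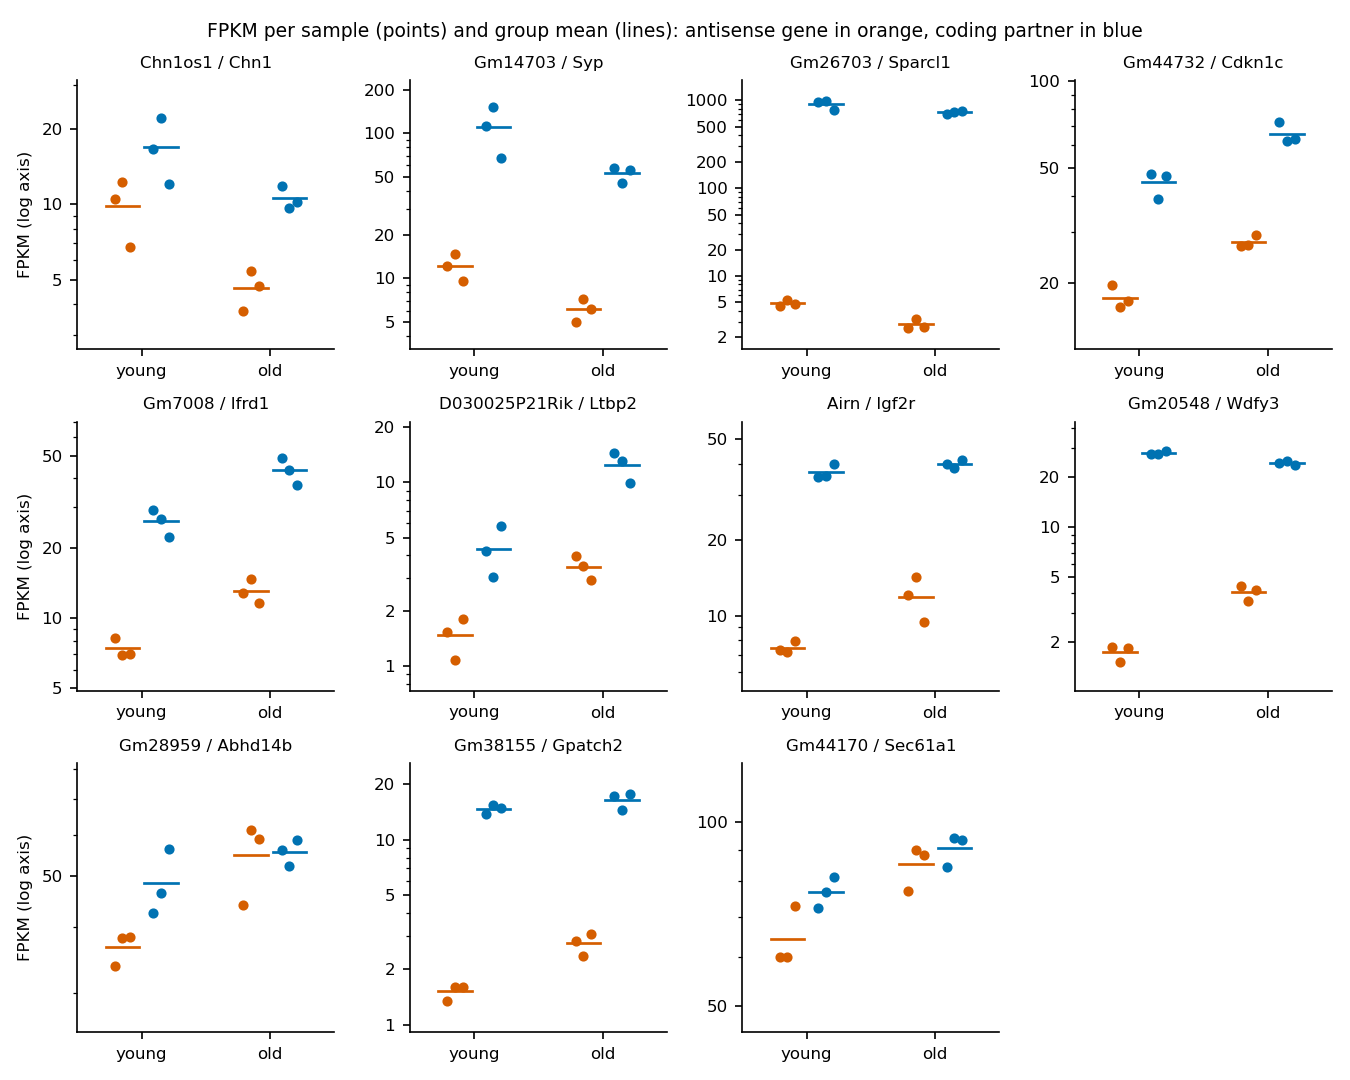
FPKM of each sample (points) and the mean of each age (lines) for 11 of the 12 called antisense genes with a tested partner, on log axes that differ between panels; the antisense gene is in orange and its coding partner in blue. The first 3 panels hold antisense genes that were lower in old mice, and the other 8 were higher; no orange group overlaps between the ages.

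The antisense genes that rose with age had partners of several kinds. The partner rose as well, past the same threshold, in 3 pairs. Gm44732 lies within Cdkn1c, an imprinted inhibitor of cyclin-dependent kinases, with 98.4% of its exonic bases over exons of Cdkn1c, and all of these over coding sequence. It had 19.7, 16.5 and 17.3 FPKM in young and 26.8, 27.1 and 29.3 FPKM in old mice. Cdkn1c had 47.9, 39 and 47.1 FPKM in young and 72.2, 62 and 62.9 FPKM in old mice. Neither gene overlapped between the ages. Gm44732 rose by 0.64 on the log2 scale (SE 0.09, adjusted p = 0.0153 in limma) and Cdkn1c by 0.56 (SE 0.10, adjusted p = 0.0258). The most abundant transcript of Cdkn1c had a log2 change of 0.44 that did not pass the test.

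Gm7008 starts beside Ifrd1 in RefSeq and inside it in GENCODE. Ifrd1 is a transcriptional coregulator of differentiation. Gm7008 had 8.25, 6.97 and 7 FPKM in young and 12.8, 14.8 and 11.6 FPKM in old mice. Ifrd1 had 29.1, 26.8 and 22.4 FPKM in young and 48.9, 43.5 and 37.4 FPKM in old mice. All old values exceeded all young values in both genes. Gm7008 rose by 0.81 on the log2 scale (SE 0.13, adjusted p = 0.0196 in limma) and Ifrd1 by 0.73 (SE 0.13, adjusted p = 0.0244), with 21.1% of the exonic bases of Gm7008 over exons of Ifrd1.

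D030025P21Rik starts within the first exon region of Ltbp2, a matrix protein of microfibrils, and shares 19.2% of its exonic bases. It had 1.52, 1.08 and 1.81 FPKM in young and 3.95, 3.52 and 2.93 FPKM in old mice, from an estimated 30.9 to 115 fragments per sample. Ltbp2 had 4.23, 3.06 and 5.78 FPKM in young and 14.5, 13 and 9.98 FPKM in old mice. The groups did not overlap for either gene. D030025P21Rik rose by 1.20 (SE 0.24, adjusted p = 0.0294 in limma) and Ltbp2 by 1.53 (SE 0.24, adjusted p = 0.0196).

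In 5 further pairs the antisense gene rose while its partner did not pass the test. Airn had 7.31, 7.16 and 7.94 FPKM in young and 12.1, 14.2 and 9.46 FPKM in old mice, without overlap, and rose by 0.65 on the log2 scale (SE 0.16, adjusted p = 0.0461 in limma). Igf2r, the receptor that clears insulin-like growth factor and carries lysosomal enzymes, had 35.4, 35.9 and 39.8 FPKM in young and 39.8, 38.3 and 41.4 FPKM in old mice. The groups touched at 39.8 FPKM, and the log2 change of Igf2r was 0.11 (SE 0.07, adjusted p = 0.401). With the most abundant transcript in place of the sum over transcripts, the log2 change of Airn was 2.51 and did not pass the test. No exonic base is shared by the annotated transcripts of Airn and Igf2r.

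Gm20548 lies inside Wdfy3, a scaffold of selective autophagy, and was the only one of the 12 whose partner had the opposite sign. It had 1.87, 1.53 and 1.86 FPKM in young and 4.4, 3.56 and 4.18 FPKM in old mice, from an estimated 9.85 to 23.6 fragments per sample. Wdfy3 had 27.6, 27.7 and 29 FPKM in young and 24.6, 25 and 23.8 FPKM in old mice. Neither gene overlapped between the ages, in opposite directions. Gm20548 rose by 1.16 (SE 0.18, adjusted p = 0.0178 in limma), and the log2 change of Wdfy3 was -0.20 (SE 0.07, adjusted p = 0.115). With the most abundant transcript alone the log2 change of Gm20548 was 2.18 and did not pass the test.

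Gm38155, without shared exonic bases, runs against the end of Gpatch2, which encodes a protein with a G-patch domain. It had 1.34, 1.6 and 1.59 FPKM in young and 2.83, 2.34 and 3.08 FPKM in old mice and rose by 0.82 (SE 0.20, adjusted p = 0.0463 in limma). Gpatch2 overlapped between the ages, with a log2 change of 0.15 (SE 0.11). Like Gm11379, D030025P21Rik and Gm20548, Gm38155 averaged under 2 FPKM in young mice and was chosen through its level in old mice.

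Gm28959 and Gm44170 lie wholly over noncoding exonic bases of Abhd14b, a serine hydrolase, and Sec61a1, the channel of the endoplasmic reticulum translocon. Gm28959 had 33.8, 38.1 and 38.3 FPKM in young and 44.1, 61.3 and 58.9 FPKM in old mice. Gm44170 had 60.1, 60.1 and 72.9 FPKM in young and 77.2, 90.2 and 88.4 FPKM in old mice. Both were higher in all old samples, and their levels were 87.9% and 89.3% of their partners' levels. They rose by 0.56 (SE 0.13, adjusted p = 0.0431 in limma) and 0.41 (SE 0.10, adjusted p = 0.049976), the latter barely inside the threshold. The changes of Abhd14b, 0.21 (SE 0.11), and Sec61a1, 0.24 (SE 0.07), did not pass it, at adjusted p = 0.268 and 0.0844. In the fit on the most abundant transcript of every gene, Gm28959, Gm44170 and Gm38155 did not pass the test. Their log2 changes there were unchanged at 0.56, 0.41 and 0.82. Gm44170 also missed the test with other pseudocounts and other scalings. The last gene that rose, 4930455G09Rik, overlapped no coding gene. It had 5.77, 5.93 and 4.97 FPKM in young and 12.6, 14.7 and 8.73 FPKM in old mice (log2 change 1.07, SE 0.20, adjusted p = 0.0251).

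Seen from the partners, 22 pairs held a called partner and an antisense gene that was not called, and 15 of these 22 had the same sign. Among these was 6330410L21Rik, at the start of Egf, the epidermal growth factor gene. It had 1.49, 1.39 and 2.52 FPKM in young and 3.1, 3.07 and 3.66 FPKM in old mice (log2 change 0.87, SE 0.25, adjusted p = 0.0744 in limma), and with an average under 2 FPKM in young mice it was chosen through its level in old mice. Egf had 16.6, 17.3 and 20.3 FPKM in young and 38.7, 35.2 and 37.4 FPKM in old mice and rose by 1.04 (SE 0.10, adjusted p = 0.00726). Neither gene overlapped between the ages.

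In other pairs too the partner passed the test and its antisense gene did not. Nup214, of the nuclear pore, rose from 10.3, 15.1 and 12.8 FPKM in young to 29.4, 27.5 and 19.2 FPKM in old mice (log2 change 0.99, SE 0.20, adjusted p = 0.0292 in limma). Its antisense gene Gm13609 had 1.26, 3.86 and 2.16 FPKM in young and 4.08, 2.29 and 0.993 FPKM in old mice, fully overlapping. With its most abundant transcript alone, Nup214 had a log2 change of 2.08 that did not pass the test. Pla2g7, a secreted phospholipase, fell by 0.42 on the log2 scale (SE 0.06, adjusted p = 0.0154), with -0.39 (SE 0.27) for its antisense gene 1700071M16Rik, or -0.10 without old replicate 3. Pllp, a protein of myelin membranes, and Uhmk1, a kinase, each fell by 0.38 (adjusted p = 0.0425 and 0.0485), with -0.20 (SE 0.13) for Gm45767 and -0.22 (SE 0.22) for 4930500M09Rik. The most abundant transcript of Uhmk1 had a log2 change of -0.13, which did not pass the test. Of 9 markers of Schwann cells and myelin 4 were lower and 0 higher in old mice, with sums from 834 to 1281 FPKM in young and from 711 to 742 FPKM in old samples, and their part in the fall of Pllp was not tested.

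Genes of secreted factors, matrix and growth factor receptors were partners of 18 antisense genes, a grouping also made after the values were seen. Of the partners 5 were higher, Ltbp2, Egf, Cpxm2, Anxa2 and Bmp5, and 1 lower, Pla2g7, and of the antisense genes 2 were higher and 1 lower. Over all genes tested 5.41% were higher and 3.68% lower, and a group made from seen values cannot be weighed against these shares. The median log2 change was 0.20 for these partners and 0.14 for the antisense genes. Bmp5, a ligand of the bone morphogenetic family, rose by 0.46 (SE 0.09, adjusted p = 0.0268 in limma), against 0.24 (SE 0.16) for Gm26903 at its end. Anxa2, a membrane-binding annexin, rose by 0.54 (SE 0.11, adjusted p = 0.0298), against -0.35 (SE 0.30) for Gm16144.

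Transcription factors were partners of 33 antisense genes, and 31 such factors were measured. Of these 1 was higher, Jund, a component of AP-1, and 0 were lower, while 0 of the 33 antisense genes were called in limma. At an unadjusted p below 0.05 in limma 4 of the antisense genes were higher and 1 lower, and 7 of the factors were higher and 2 lower. Over all 19649 genes tested 2843 were higher and 2560 lower at that p. Jund had 39.2, 32.2 and 37.7 FPKM in young and 59.2, 55.5 and 46 FPKM in old mice (log2 change 0.55, SE 0.12, adjusted p = 0.0341). Gm11175, wholly over the coding exon of Jund, had 63, 64.6 and 71 FPKM in young and 126, 71.9 and 81 FPKM in old mice (log2 change 0.45, SE 0.19, adjusted p = 0.185). Neither overlapped between the ages, though 1 old value of Gm11175 lay close to the young ones, and without old replicate 1 its log2 change was 0.21. Membrane traffic genes were partners of 14 antisense genes, with 1 of these higher, Gm44170, and 1 of 13 partners higher, the Golgi protein gene Golgb1. Over all genes tested 5.41% were higher and 3.68% lower by adjusted p. Both groupings were made after the values were seen and cannot be weighed against these shares.

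Of the genes known by name as antisense and listed for description, Airn and Tbx3os1 had the type antisense and reached 2 FPKM. Zfas1, also listed, averaged 39.1 FPKM, but this annotation types it as a processed transcript, so it was not among the chosen genes. Tbx3os1, divergent from the developmental factor Tbx3, had 1.08, 3.6 and 2.5 FPKM in young and 3.98, 3.47 and 3 FPKM in old mice, and the groups overlapped. Tbx3 had values from 4.6 to 6.22 FPKM over both ages, and its log2 change was -0.03 (SE 0.17). Zeb2os, opposite a regulator of epithelial and glial identity, averaged 1.01 FPKM, under the level asked for. It had 0.519, 0.618 and 0.632 FPKM in young and 1.61, 1.33 and 1.36 FPKM in old mice (log2 change 1.15, adjusted p = 0.0365 in limma). Emx2os and Dlx6os1 averaged 0.974 and 0.344 FPKM, and their log2 changes of 0.08 and -0.51 did not pass the test.

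Whether an antisense gene changed differently from its partner was tested with limma on the log2 ratio of both, over all 1064 pairs of the table in which both genes averaged at least 0.1 FPKM. No pair passed the adjusted threshold, 0 of the 257 and 0% of all pairs. At an unadjusted p below 0.05 there were 14 of the 257, against 6.86% of all pairs. The lowest adjusted p was 0.208, for Gm20548 and Wdfy3, where the antisense change exceeded the partner change by 1.36 on the log2 scale (95% interval 0.76 to 1.96). This interval is unadjusted and belongs to the pair picked by the lowest p of the 257. Gm20548 was also chosen through its level in old mice, so the interval cannot be read as a difference shown. For A230072E10Rik, which starts 671 nt from Fam120c, the difference was -1.14 (95% interval -1.78 to -0.49, adjusted p = 0.43). A230072E10Rik had 6.17, 6.34 and 6.61 FPKM in young and 4.81, 2.72 and 2.37 FPKM in old mice, and Fam120c had from 8.04 to 10.7 FPKM over both ages.

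The other pairs with large differences and ratios that did not overlap between the ages were Nr6a1os and Nr6a1 at -1.30, Gm15867 and Sertad4 at 1.15, Gm29237 and Sptbn1 at 0.90, and Trmt61b and Spdya at -0.89. Nr6a1os, inside the nuclear receptor gene Nr6a1, had 4.64, 4.36 and 5.23 FPKM in young and 5.39, 2.12 and 1.62 FPKM in old mice. Nr6a1 passed the test with the most abundant transcript. Trmt61b is a coding gene by its name, but this annotation gives its transcripts the type antisense. In 3 of the pairs where both genes were called the intervals of the difference included 0, from -0.40 to 0.56 for Gm44732 and Cdkn1c, from -0.43 to 0.60 for Gm7008 and Ifrd1, and from -0.79 to 0.13 for D030025P21Rik and Ltbp2. For Airn and Igf2r the difference was 0.54 with an interval from -0.06 to 1.14. Intervals of this width do not show that the 2 strands changed alike.

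**Figure D5:**
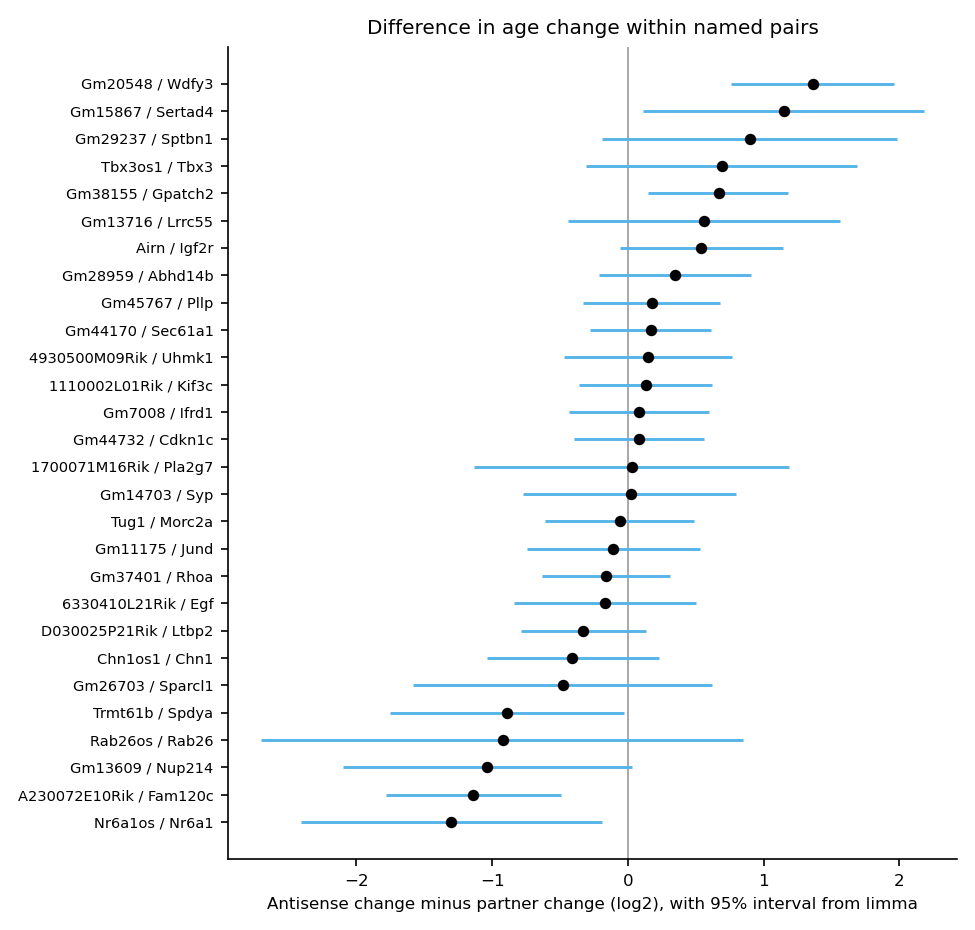
Antisense change minus partner change on the log2 scale for the named pairs (points), with the 95% interval from limma (lines), unadjusted for the number of pairs. Gm20548 and Wdfy3 lie highest at 1.36 and Nr6a1os and Nr6a1 lowest at -1.30, and most intervals include 0.

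Over the 257 pairs, 150 had the same sign of change in both genes, 58.4%, beside 57.7% over all pairs. Pearson's r between both changes was 0.27 and Spearman's rho 0.31, as a description across pairs that come from the same 6 libraries. The share with the same sign was 54.1% in the 37 pairs without shared exonic bases, 52.7% in those with a share under 50%, 70% in those from 50 to 90% and 73.5% in the 34 pairs at 90% or more, where rho was 0.67 against 0.06 in the first class. Pearson's r did not rise in this order, at 0.2, 0.35, 0.18 and 0.29 from the first class to the last. Whether shared fragments enter these values was not tested. In antisense genes below 2 FPKM the same share was 48% in 25 pairs at 90% or more and 56.5% in 294 pairs without shared bases, so the order of the classes differed there. By position, 66.7% of 48 tail-to-tail pairs, 58.6% of 70 head-to-head pairs and 55.5% of 137 pairs with the antisense gene inside its partner had the same sign. For 49 pairs whose starts lay within 1000 nt it was 55.1%.

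Other classes of genes set a scale for these counts. At 2 FPKM or more, 6.6% of 212 lincRNA genes and 12.2% of 12130 protein-coding genes were called, beside 5.04% of the antisense genes and 10.3% of the partners. Of 868 antisense genes below 2 FPKM that entered the test 1.96% were called. Of 15 hair cell markers 7 were lower, of 12 macrophage markers 10 were higher and of 10 interferon response genes 8 were higher in old mice, and none of these averaged below 0.1 FPKM. Their part in the changes of antisense genes and partners was not tested.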

How the data were processed

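Total RNA of 6 cochlear samples, 3 young and 3 old, was analysed by RNA-sequencing. Per the submitters' processing notes, CASAVA 1.8, TopHat2 2.0.9, Cufflinks 2.1.1 and Cuffdiff 2.1.1 were used. The authors aligned the reads to GRCm38 and deposited 1 FPKM value per transcript and sample, and the annotation release, the use of strand in counting and the scaling between libraries were not given in the sources used here. FPKM values were summed per gene after matching to GENCODE M21, in which 404 transcripts with Ensembl identifiers were not found. The depth of a sample was derived from the step that 1 fragment makes in low values, read from transcripts 1000 to 4000 nt long, where 93.1 to 94.7% lay within 0.1 of a whole step. Estimated fragments carry counting error only and are not given for transcripts under 500 nt.

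Genes with a mean of at least 0.1 FPKM were compared with limma 3.58.1 in R 4.3.3 (linear fits, then eBayes with its trend option) on log2(FPKM + 0.1), two-sided, with age as the only term and Benjamini-Hochberg adjustment over all genes tested. The Cuffdiff test of the study needs reads, which were not used here. Shares of exonic bases rest on every annotated transcript of both genes. Pairs were compared by the same fit on the log2 ratio. The code was tested on simulated data. As nothing says that samples of an age came from separate litters or cages, p-values measure the spread between these mixed samples. Samples were grouped by their labels, and the same replicate numbers at both ages did not pair them, since the correlations of their deviations were 0.0306, -0.0958 and 0.0388.

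Named with values are the antisense genes called and those with a called partner (up to 12 in each direction), the 6 with the highest level, the 6 largest differences among pairs with ratios that do not overlap, known antisense genes, and 3 genes on each side of the level that chose the genes. Other genes are named as members of a partner group, and those groups were made after seeing the values. The members and lists were chosen with earlier results of these data known. The antisense gene left out, and 1 other pair, are not reported here. Alternatives covered the pseudocount, filter, scaling, variance trend, sample weights, a replicate block, transcripts against sums, the choice of partner and of the level, the adjustment, and each sample left out. Tables and plots were made with pandas 2.3.3, numpy 2.4.6 and matplotlib 3.10.9 in Python 3.11.15.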

Additional observations from a re-analysis of the deposited data

How the results depend on the processing

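Of the counts compared, 10 antisense genes were higher and 4 lower, 20 partners higher and 6 lower, and 0 pairs differed. Without the filter on low values the 4 counts of genes were 5, 1, 10 and 1, and without the variance trend 2, 0, 1 and 0. With sample weights 8 antisense genes and 11 partners were lower. With the most abundant transcript 5 antisense genes and 13 partners were higher. With a level of 1 FPKM asked for, 8 antisense genes were lower and 31 partners higher and 18 lower, and with 5 FPKM 2 antisense genes were lower and 9 partners higher. At an unadjusted p the counts were 33, 24, 41 and 33, with 14 pairs, and with adjustment over lncRNA genes 2 antisense genes were higher and 0 lower. Of all 19649 genes tested 2843 were higher and 2560 lower at the unadjusted p. With a replicate block 2 antisense genes were lower, 7 partners higher and 2 lower, and as the numbers do not pair the samples this is no measure of the effect. Leaving out 1 sample gave 1 to 10 antisense genes higher and 0 to 5 lower, 0 to 12 partners higher and 0 to 11 lower, and 0 to 1 pairs. The causes were not tested. Among the named genes, none past the threshold changed direction under these alternatives. Where the ages do not overlap, leaving out 1 sample could not change it. The median log2 change of all genes was 0.009, and 0.003 and -0.018 with median-of-ratios scaling and quantile normalization. Precision is limited by 3 samples per age, with a median spread of 18.6% to 18.8% among samples of one age for the antisense genes.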
